A study of Drosophila melanogaster with 3 samples.

Results

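The 6 genes described here encode integrin subunits, the integrin-binding protein talin and laminin chains. They are mew (FBgn0004456), if (FBgn0001250) and mys (FBgn0004657), which encode integrin subunits, rhea (FBgn0260442), which encodes talin, and LanA (FBgn0002526) and LanB1 (FBgn0261800), which encode laminin chains. They were chosen by gene ID, with their numbers of intervals already known, from the 6502 genes that held at least 1 called interval of Aubergine (Aub) binding. Together they held 154 of 51962 intervals. Of the 6 IDs, 1 (that of LanA) is paired with its symbol in RefSeq's gene table for the Release 6 genome. The other 5 names were given together with the IDs. All 6 genes lay on the chromosome that this table gives for their symbol.

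Integrins are receptors made of an alpha and a beta subunit that span the cell membrane and hold a cell to the extracellular matrix. In Drosophila the alpha subunits encoded by mew and if each pair with the beta subunit encoded by mys. Inside the cell, talin binds the tail of the beta subunit and links it to actin. Outside, laminins, which are trimers of an alpha, a beta and a gamma chain, are main components of the basement membrane and are bound by integrins. In the fly gonad, integrins and laminin take part in anchoring the stem cell niche and in the contact between somatic and germline cells.

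The study mapped RNAs in contact with Aub, a member of the Piwi family of Argonaute proteins and a carrier of piRNAs, in cultured germline stem cells by iCLIP. This method crosslinks a protein to RNA with ultraviolet light (here 150 mJ/cm2 at 254 nm), purifies it and sequences the attached RNA. All 3 libraries came from cells of one genotype without drug treatment, and they form a single group (replicates 1, 2 and 3). The cells were UASp-GFP-aub/+ and carried the bam∆86 allele on both homologues, with hs-bam beside it on one and nos-gal4 beside it on the other. The germline driver nos-gal4 expresses GFP-tagged Aub in addition to the gene's own product, loss of bam blocks differentiation, and hs-bam is a heat-inducible bam transgene. Whether the libraries stem from separate cultures is not stated, and their spread may therefore be technical. No control library was analysed here, and none of 5 germline marker genes could be matched to an ID, so the cell type was not checked against its markers.

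An interval is a stretch of the genome called as bound. The deposited lists give its position, strand and gene but no height, so the depth in reads is unknown. Replicates 1, 2 and 3 held 4007, 36157 and 11798 intervals in 1459, 6364 and 3310 genes. Replicate 2 stood apart in shape as well as number. Its median interval was 13 nt wide against 25 nt in the other two, and 9.0% of its intervals were exactly 25 nt wide against 52.1% in replicate 1 and 47.5% in replicate 3. A number of intervals cannot tell contact with Aub from transcript abundance, nor a lower level per cell from fewer cells with the transcript.

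Intervals of all 3 libraries were found in 5 of the 6 genes, and in replicates 2 and 3 alone in the sixth, if. Of all genes with an interval, 20.9% had intervals in all 3 libraries. The background was 87.8% among the 878 genes with at least 17 intervals, the number held by the smallest of the 6. The count of 5 is therefore near what genes of this size show. The 6 genes together held 19, 93 and 42 intervals in replicates 1, 2 and 3. These were 0.474% (95% Wilson interval 0.304 to 0.739), 0.257% (0.210 to 0.315) and 0.356% (0.263 to 0.481) of the libraries, with a mean of 0.362% ± 0.109 (SD, n = 3). Replicate 1 gave the highest share and replicate 2 the lowest, and neighbouring Wilson intervals overlapped. Wilson intervals cover counting error only and treat intervals as independent.

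Among the integrin subunits, mew, the alpha subunit of the PS1 integrin, had 6, 12 and 8 intervals in replicates 1, 2 and 3. It lay on the minus strand of X between positions 13108474 and 13152425 (dm3). Its share of a library was 0.150% (0.0686 to 0.326) in the first of these, 0.0332% (0.0190 to 0.0580) in the second and 0.0678% (0.0344 to 0.134) in the third. Replicate 1 was thus high by number of intervals, with a Wilson interval that did not overlap that of replicate 2. However, all 6 intervals of replicate 1 lay within 214 nt, 5 of them inside a single interval of replicate 2. They may be pieces of 1 covered stretch, which the Wilson intervals do not allow for. The mean share was 0.0836% ± 0.0599 (SD, n = 3), the highest of the 6 genes. It fell to 0.0505% without replicate 1, and to 0.0346% with only intervals of at least their library's median width, below LanB1, mys and rhea.

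The other alpha subunit gene, if, which encodes the alpha subunit of the PS2 integrin, had 0, 11 and 6 intervals. It lay on the minus strand of X between 16646284 and 16677467. The count of 0 of 4007 intervals in replicate 1 allows a share of up to 0.0749%, taken as 3 counts, or 0.0958% by the upper Wilson bound used for the other shares. At the shares of replicates 2 and 3 (0.0304% and 0.0509%), replicate 1 would have held 1.22 or 2.04 intervals, so its absence there was not separable from the size of that library. The mean share was 0.0271% ± 0.0256 (SD, n = 3). It was 0.0406% without replicate 1 and 0.0152% without replicate 3.

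The beta subunit gene mys had 3, 12 and 8 intervals in replicates 1, 2 and 3, on the plus strand of X between 7958446 and 7964270. Its shares were 0.0749% (0.0255 to 0.220), 0.0332% (0.0190 to 0.0580) and 0.0678% (0.0344 to 0.134), with a mean of 0.0586% ± 0.0223 (SD, n = 3). Replicate 2 gave the lowest share, but the 3 Wilson intervals overlapped. The talin gene rhea had 3, 22 and 7 intervals on the plus strand of 3L between 8538145 and 8567509. Its shares were 0.0749% (0.0255 to 0.220), 0.0608% (0.0402 to 0.0921) and 0.0593% (0.0287 to 0.122). They varied least of the 6 genes (mean 0.0650% ± 0.0086, SD, n = 3). This SD is smaller than the 0.0250% that 1 interval of replicate 1 is worth, so the low spread rests on few intervals.

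The laminin alpha chain gene LanA had 4, 20 and 6 intervals on the minus strand of 3L. Its shares were 0.0998% (0.0388 to 0.256), 0.0553% (0.0358 to 0.0854) and 0.0509% (0.0233 to 0.111). Replicate 1 gave the highest share, on 4 intervals, but the 3 Wilson intervals overlapped. The laminin beta chain gene LanB1 had 3, 16 and 7 intervals on the plus strand of 2L between 7811562 and 7820757. Its shares were 0.0749%, 0.0443% and 0.0593%, with a mean of 0.0595% ± 0.0153 (SD, n = 3). By number of intervals, the share was highest in replicate 1 for each of the 5 genes found in all 3 libraries. The same held for 63.3% of all 1361 genes found in all 3 libraries, and for 56.5% of the 771 of them with at least 17 intervals. In replicate 1, 1 interval is already worth 0.0250%. By covered nucleotides rhea was higher in replicate 2 (468 of 648130 nt) than in replicate 1 (51 of 84965 nt).

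**Figure D1:**
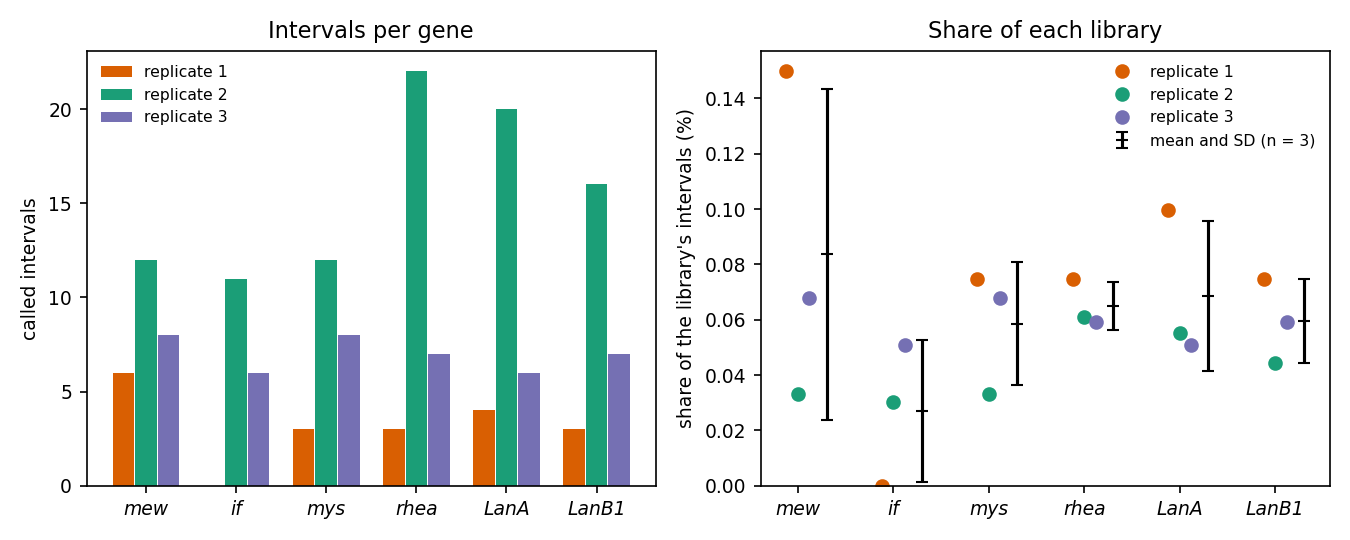
Intervals of each gene in the 3 libraries as numbers (left, bars) and as a percentage of the library's intervals (right, points, with the mean and SD over 3 libraries beside them). The numbers are highest in replicate 2 for every gene, whereas the share is highest in replicate 1 for every gene but if, which has none there.

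Ordered by mean share, mew came before LanA (0.0687% ± 0.0271), rhea, LanB1, mys and if. Each gene's mean lay within 1 SD of its neighbour's except for mys and if, whose ranges (mean ± SD) still overlapped, so the order was not resolved. Shares take no account of gene length. Transcript lengths of the build used were not analysed here, so the only scale by length is the span from a gene's outermost intervals, introns included. Per kb of that span, mys had 3.95 intervals summed over the libraries, LanB1 2.83, LanA 2.12, rhea 1.09, mew 0.592 and if 0.545. On this scale mys, LanB1 and LanA came first in that order in each library, with 2.06, 1.74 and 1.42 intervals per kb in replicate 2 and 1.37, 0.761 and 0.425 in replicate 3. The low density of mew and if goes with long stretches that held no interval. The largest such stretch was 41918 nt in mew (95.4% of its span) and 26900 nt in if (86.3%). Of the 872 other genes with at least 17 intervals, 8.60% and 16.6% had a stretch as long, against a median of 6890 nt.

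Along mew, 17 of the 26 intervals lay within 1570 nt on the 5′ side of the long stretch (13150856 to 13152425) and 9 within 464 nt on its 3′ side (13108474 to 13108937). All 6 intervals of replicate 1 were on the 5′ side, as were 5 of 12 in replicate 2 and 6 of 8 in replicate 3. In if, 12 intervals lay on the 5′ side, between 16674014 and 16677467, and 5 on the 3′ side, between 16646284 and 16647113. The 3′ group of if held 4 intervals of replicate 2 and 1 of replicate 3. In mys, 22 of the 23 intervals lay within 1299 nt at the 3′ side of the span, from 7962972 to 7964270. The remaining interval, of replicate 1, lay 4501 nt upstream of them at 7958446 to 7958470. In rhea, 16 of 32 intervals lay within the last 3245 nt of the span, 12 of them of replicate 2. A further group of 4 between 8558582 and 8559520 held 2 intervals each of replicates 1 and 3 and none of replicate 2. LanA and LanB1 had intervals spread over most of their spans, with the densest site at the 5′ edge of each.

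**Figure D2:**
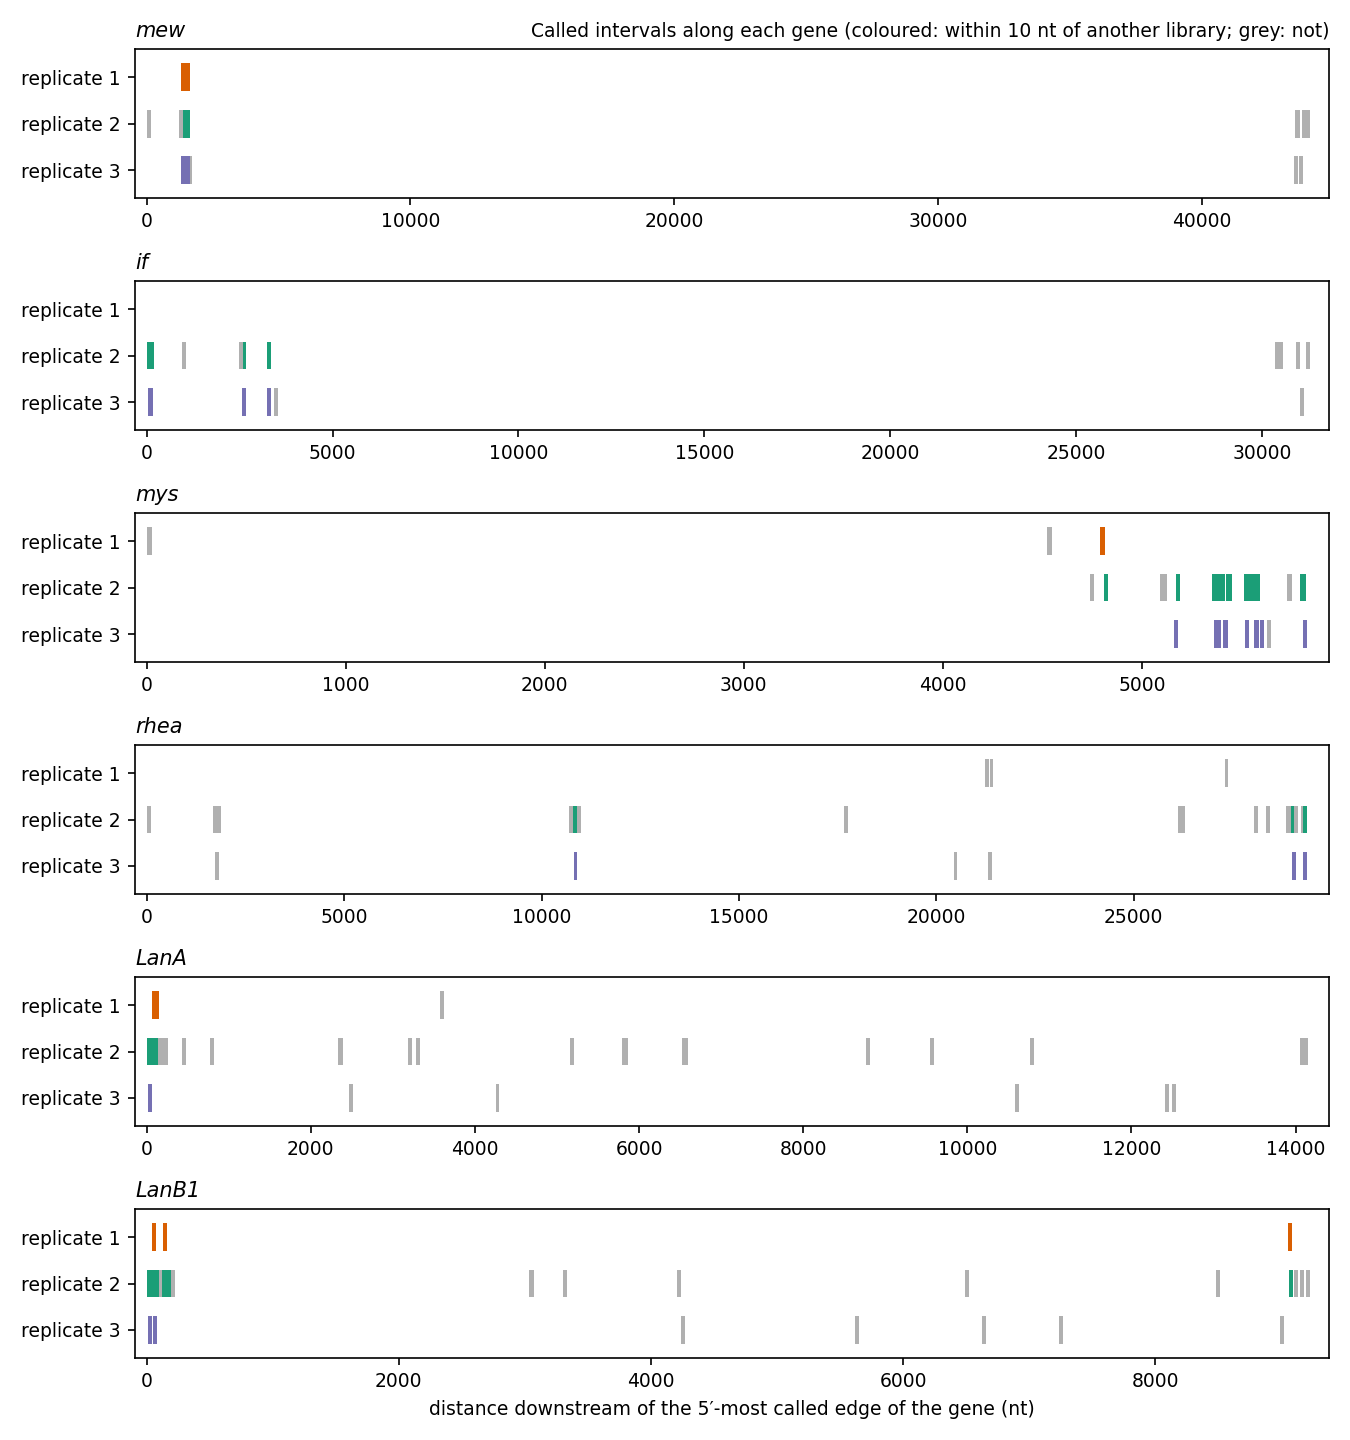
Called intervals of the 6 genes in each library, by distance in nt downstream of the gene's 5′-most called edge. Narrow intervals are drawn wider than to scale so that they can be seen. Coloured bars lie within 10 nt of an interval of another library and grey bars do not: mys is coloured over its 3′ part, LanA only at its 5′ edge.

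The position of these groups differed among the 6 genes. Within 500 nt of the 5′-most edge lay 9 of 30 intervals of LanA, 9 of 26 of LanB1 and 5 of 17 of if, but only 1 each of mew, mys and rhea. Within 500 nt of the 3′-most edge lay 14 of 23 intervals of mys, 10 of 32 of rhea and 9 of 26 of mew, but 2 of LanA, 3 of if and 6 of LanB1. For each gene the outermost interval is counted by construction. The fuller end of each gene held 29.4% to 60.9% of its intervals, with a median of 32.9%. Among 748 other genes with at least 17 intervals and a span of at least 5 kb, the median was 32.0% and the quartiles 20.8% and 47.1%. At this window only mys lay above the upper quartile, and 8.69% of those genes had as large a share at an end. The span of mys, 5825 nt, passed the limit of 5 kb only through 1 interval of replicate 1, as the other 22 lay within 1299 nt. Its 14 intervals at the 3′ end were 7 each of replicates 2 and 3. Which genes stood out changed with the window. Within 200 nt, LanB1 (34.6%) and if (29.4%) lay above the upper quartile of 25%, and mys had 17.4%. Within 1000 nt, mys had 78.3%, and the median of the 6 genes was 34.6% against 45% in the other genes. Whether these ends are exons, introns or untranslated parts was not analysed here.

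Recurrence was judged by position. An interval counted as recurrent when an interval of another library lay on the same strand with at most 10 uncovered nt between them. Of the 19 intervals of the 6 genes in replicate 1, 13 recurred in replicate 2 (68.4%, 95% Wilson interval 46.0 to 84.6) and 6 in replicate 3 (31.6%, 15.4 to 54). Of the 42 in replicate 3, 23 recurred in replicate 2 (54.8%, 39.9 to 68.8). The same shares over all genes were 59.9%, 33.0% and 46.6%, and over genes with at least 17 intervals 64.7%, 36.5% and 55.6%. All of these lie inside the Wilson intervals of the 6 genes, so no difference from the background was detectable. In all, 94 of the 154 intervals (61.0%) had no partner in another library, 42 had one in 1 other library and 18 in both. The background without a partner was 69.7% over all genes and 59.3% over genes with at least 17 intervals.

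The 6 genes differed among themselves in this. Of the intervals of mys, 7 of 23 had no partner (30.4%), followed by mew with 12 of 26 (46.2%) and if with 8 of 17 (47.1%). LanB1 had 17 of 26 (65.4%), rhea 25 of 32 (78.1%) and LanA 25 of 30 (83.3%). Among 871 other genes with at least 17 intervals the median was 61.1% and the quartiles 47.4% and 74.2%. A share as low as that of mys was found in 5.63% of them, and 88.2% of them lay at or below the share of LanA. By role, 27 of 66 intervals of the integrin subunit genes had no partner (40.9%, 29.9 to 53.0), against 42 of 56 of the laminin chain genes (75%, 62.3 to 84.5) and 25 of 32 of rhea (78.1%, 61.2 to 89.0). In replicate 2 alone these were 19 of 35, 31 of 36 and 19 of 22, and in replicate 3 they were 6 of 22, 10 of 13 and 3 of 7. In replicate 1 the numbers were 2 of 9, 1 of 7 and 3 of 3, so the laminin genes were not the less recurrent there. This grouping was made with the values known, and intervals of a gene are not replicates, so the difference was not tested.

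**Figure D3:**
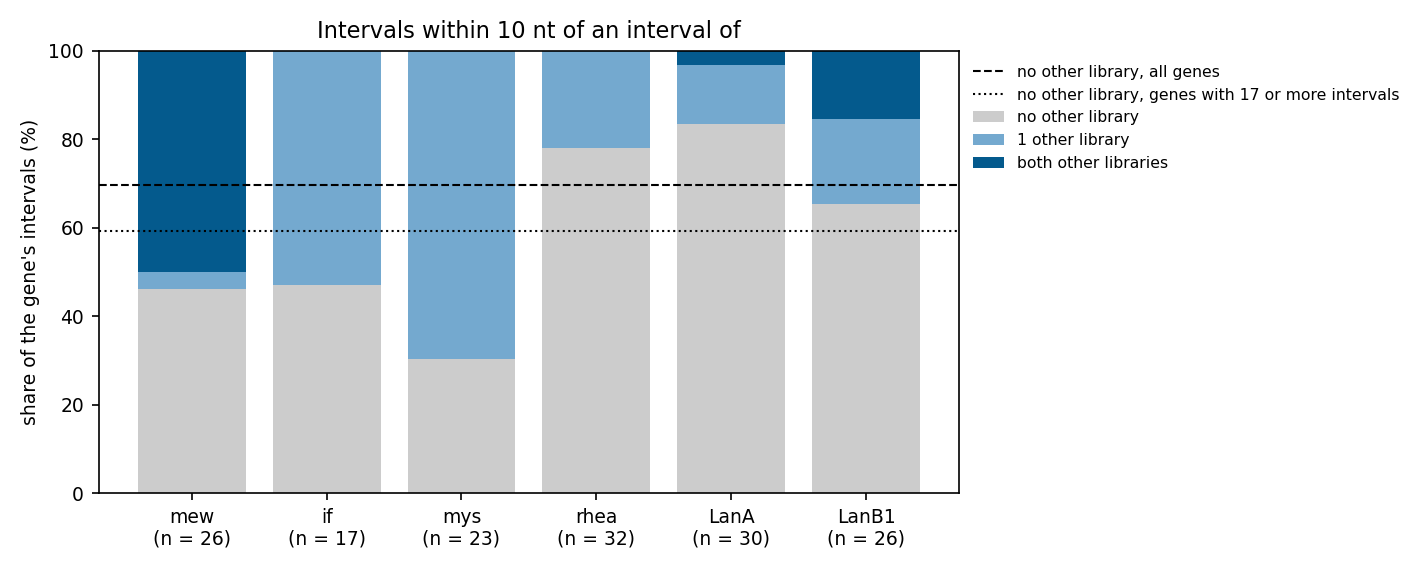
Share of each gene's intervals, summed over the libraries, that lay within 10 nt of an interval of no other library, of 1 other library or of both. The dashed line marks the share with no partner over all genes (69.7%) and the dotted line that over genes with at least 17 intervals (59.3%). The 3 integrin subunit genes lie below both lines, rhea and LanA above both.

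Joined within 10 nt, the 154 intervals formed 92 sites, of which 77 held intervals of 1 library, 12 of 2 libraries and 3 of all 3 libraries. All 3 libraries thus met in 3.26% of the sites and at least 2 in 15 of them (16.3%). Over all genes, 3.25% of 33911 sites held all 3 libraries and 15.7% at least 2. The 3 common sites lay in mew, LanA and LanB1. A common site was found in 56.4% of genes with at least 17 intervals and in 10.9% of all genes, so 3 of 6 is again near the background for genes of this size. The 3 sites held 11 of the 19 intervals of replicate 1 (57.9%, 36.3 to 76.9), 12 of 93 of replicate 2 (12.9%, 7.54 to 21.2) and 8 of 42 of replicate 3 (19%, 9.98 to 33.3). In genes with at least 17 intervals, common sites held 41.5%, 10.8% and 21.7% of the intervals, each inside these Wilson intervals. Over all genes they held 36.6%, 6.21% and 14.8%. Of these, the 6.21% of replicate 2 lay below the Wilson interval of the 6 genes.

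The site in mew, on the minus strand of X from 13150914 to 13151127, was 214 nt long and held 6, 3 and 5 intervals of replicates 1, 2 and 3. It thus held every interval that replicate 1 had in mew. With 14 intervals it was 1 of 4 sites with as many among the 33911, of which the fullest had 20. Coverage by all 3 libraries extended over 78 nt in 5 stretches, the longest being 40 nt from 13150981 to 13151020, 21 nt from 13150918 to 13150938 and 13 nt from 13151065 to 13151077. Across the whole gene, 398 nt were covered in any library and 36.7% of these in at least 2. The called form of the site differed between libraries. Replicate 2 covered 13150953 to 13151127 with a single interval of 175 nt, the widest in the 6 genes, and that interval contained 5 intervals of replicate 1 and 3 of replicate 3. The number of intervals in this site therefore depended on how each library's covered stretch was divided. Replicates 1 and 2 shared the 5′ edge at 13151127 to the nucleotide, and replicates 1 and 3 the 3′ edge at 13151065.

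The site in LanA spanned 6210912 to 6211122 on the minus strand of 3L, was 211 nt long and held 3, 4 and 1 intervals. It is the 5′-most site of the gene. Its libraries met only through replicate 2, whose interval of 136 nt (6210987 to 6211122) contained 3 intervals of replicate 1 and 1 of replicate 3. In LanA, replicates 1 and 3 had no intervals within 10 nt of each other, and no nucleotide of the gene was covered in all 3 libraries. Outside this site LanA had 20 further sites, each of a single library. The 453 covered nt of LanA were shared by at least 2 libraries over 11.3%.

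The site in LanB1, on the plus strand of 2L from 7811562 to 7811759, was 198 nt long and held 2, 5 and 2 intervals. It too was the 5′-most site of its gene, and the next interval lay 2834 nt downstream. Coverage by all 3 libraries amounted to 5 nt, from 7811610 to 7811614. Replicate 2 again had wide intervals there, of 83 nt and 76 nt, each containing 1 interval of replicate 1. A further site at the 3′ side of LanB1 (7820616 to 7820640) held 1 interval each of replicates 1 and 2. With a joining distance of 50 nt it became a common site as well, from 7820553 to 7820757, with 1, 4 and 1 intervals. At that distance the 6 genes had 68 sites, of which 4 held all 3 libraries (5.88%) and 19 at least 2 (27.9%), against 4.69% and 20.1% of the sites of all genes. The same shares for genes with at least 17 intervals were not analysed here, so these differences have no background for genes of this size.

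**Figure D4:**
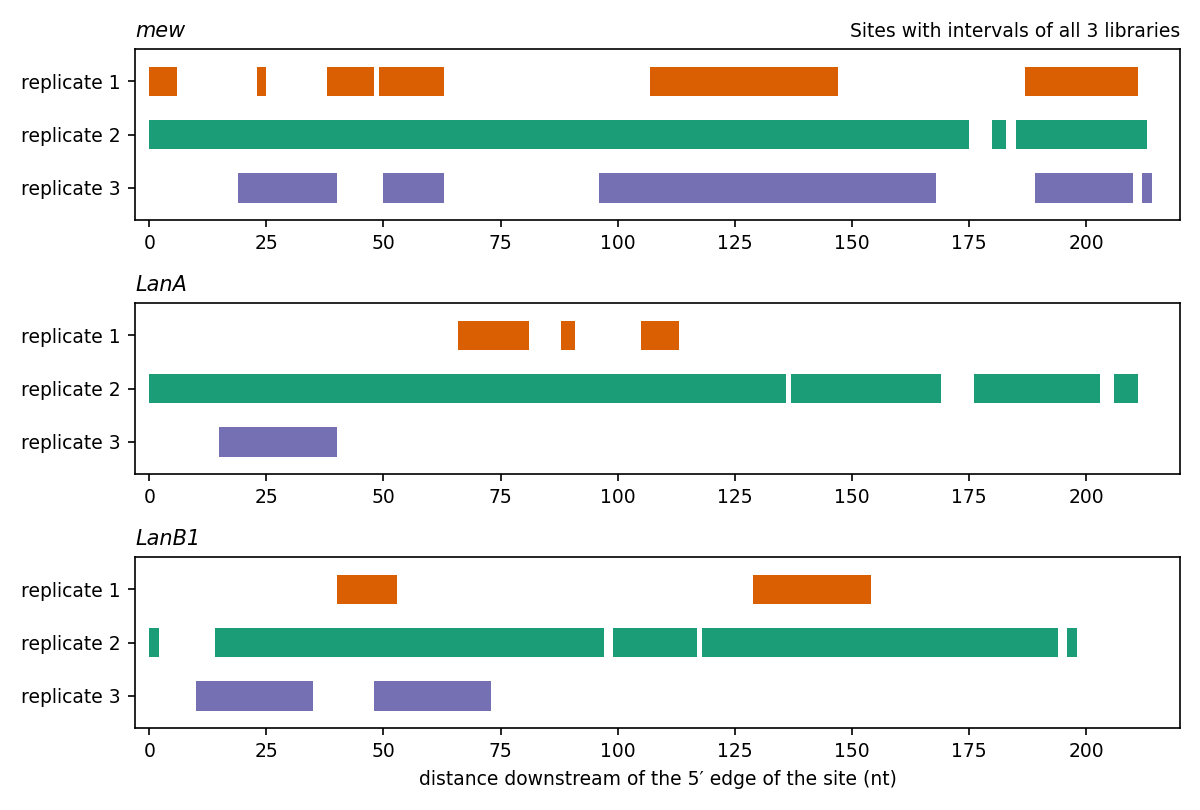
The 3 sites with intervals of all 3 libraries, in mew, LanA and LanB1, by distance in nt downstream of the 5′ edge of the site; each bar is a called interval drawn to scale. Wide intervals of replicate 2 cover most of each site, the intervals of replicates 1 and 3 lie mostly within them, and in LanA replicates 1 and 3 do not meet.

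The 3 genes without a common site differed in which libraries met. In mys, 5 of 11 sites held 2 libraries, 4 of them replicates 2 and 3. The fullest, from 7963961 to 7964041, held 3 intervals of each, and the next, from 7963801 to 7963897, held 2 of each. Of the 8 intervals of mys in replicate 3, 7 recurred in replicate 2 (87.5%, 52.9 to 97.8). The background was 46.6% over all genes and 55.6% over genes with at least 17 intervals, the latter inside this Wilson interval. Replicates 2 and 3 ended intervals of mys on the same nucleotide at 7964270. Replicate 1 met replicate 2 in 1 site of mys, from 7963237 to 7963261, and replicate 3 in none. In if, 3 of 11 sites held replicates 2 and 3. The fullest was the 5′-most, from 16677351 to 16677467, with 3 and 2 intervals. The libraries shared the 5′ edge at 16674229 and the 3′ edges at 16674897 and 16677375. These were 3 of the 6 edges that coincided exactly in the 6 genes. How often edges coincide over all genes was not analysed here, so this count has no background.

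In rhea, 3 of 23 sites held 2 libraries, in each case replicates 2 and 3, at 8548945 to 8548983, 8567140 to 8567171 and 8567434 to 8567509. Its 3 intervals in replicate 1 had no partner within 10 nt in another library. The nearest approach was in the group around 8559381 to 8559520, where 2 intervals of replicate 1 flanked 1 of replicate 3 at 8559456 to 8559468. Of the 575 nt covered in rhea, 9.57% were covered in at least 2 libraries, the lowest share of the 6 genes. Between replicates 3 and 2, however, 4 of 7 intervals of rhea recurred (57.1%, 25 to 84.2). This was near the 55.6% over genes with at least 17 intervals (46.6% over all genes). The laminin genes were lower on this measure, with 1 of 6 in LanA (16.7%, 3.01 to 56.4) and 2 of 7 in LanB1 (28.6%, 8.22 to 64.1). Their Wilson intervals held these background shares too. Of their few intervals in replicate 1, 3 of 4 in LanA and 3 of 3 in LanB1 recurred in replicate 2.

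Interval widths followed the library. The 6 genes had median widths of 24 nt in replicate 1, 14 nt in replicate 2 and 21.5 nt in replicate 3, and intervals of exactly 25 nt made up 7 of 19, 7 of 93 and 17 of 42. Intervals of at least 50 nt numbered 8, of which 7 were of replicate 2 and 1, in mew, was of replicate 3. Over all genes, intervals of this width made up 0.674%, 5.38% and 0.797% of replicates 1, 2 and 3. The 8 fell in all 6 genes, and each overlapped an interval of another library. Wide intervals have more room to overlap, and the same share for wide intervals of all genes was not analysed here. Among the genes, the median width was lowest in LanA (10.5 nt) and highest in mys (25 nt). No interval of the 6 genes was also assigned to a second gene. Rows that repeat a position were few over all genes. Replicates 1, 2 and 3 held 3986, 35824 and 11685 distinct positions in 4007, 36157 and 11798 rows.

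Further integrin, laminin, adhesion and matrix receptor genes (33 by symbol, among them LanB2, wb, scb, Ilk and vkg) could not be matched to an ID and were not analysed here. Of 50 other genes with a known symbol, the one whose shares over the 3 libraries lay closest was CG42353 for 5 of the 6 genes, with 3, 18 and 8 intervals. The sum of absolute differences in share was smallest for LanB1 (0.0140%) and largest for mew (0.0915%). For if it was CG41099, with 0, 6 and 4 intervals (0.0308%). With 3 libraries, and an interval of replicate 1 worth 0.0250%, closeness of this kind rests on few intervals.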

How the data were processed

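The authors used TopHat2 2.0.13 and CASAVA 1.4 with genome build dm3, per the submitters' processing notes. Not given in the sources used here are the caller of the intervals and its threshold, the annotation of genes and any use of the 5-nt random barcode. The authors deposited 1 list of called intervals per library, and the deposited score is 0 in every row, so it was not used. The members, lists and grouping were chosen with earlier results of these data known.

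From these lists, intervals per gene were counted as deposited. Positions are 1-based on dm3. For recurrence, rows of the same position were counted once. Sites were formed by joining intervals of any library on one strand. Shares have 95% Wilson intervals. No statistical test was made, because there is 1 group and the genes were chosen with their counts known. All 6 genes were named and described, with every site common to 3 libraries and the fullest site of each gene; genes closest in share were taken from those with a symbol. The search for overlaps gave the known answers on simulated data. Python 3.11.15, numpy 2.4.6, pandas 2.3.3 and matplotlib 3.10.9 were used.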

Additional observations from a re-analysis of the deposited data

How the results depend on the processing

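Of 59 alternative values, 50 moved by less than the spread between libraries (for counts, by less than 1.5 times); leaving out 1 library cannot move a mean share by 1 SD. With only intervals of at least their library's median width, the mean share fell to 0.0346% for both mew and LanA and rose to 0.0757% for LanB1; mew, which led with 0.0836%, then lay below LanB1, mys (0.0691%) and rhea (0.0677%). The mean recurrent share over the 3 pairs of libraries (51.6%) became 28.7% with these intervals and 2.55% when 5′ edges had to coincide, and lay between 31.6% and 68.4% when 1 library was left out. The 3 common sites became 15 when 2 of 3 libraries sufficed, and 4 to 13 when 1 library was left out. Both requirements change the count by construction, and other causes were not tested. The share of intervals within 500 nt of an outermost edge (45.5%) was 28.6% for 200 nt and 51.9% for 1000 nt, and which genes stood out there changed too; these windows were chosen after seeing the data. No paired analysis was possible because the 3 libraries form a single group. Depth in reads is unknown, and a gene with 3 intervals in replicate 1 can show little there.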
